A study of Mus musculus with 30 samples.

Results

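The hepatic transcripts described here belong to 33 genes of cholesterol synthesis, uptake and export, chosen by name. All 33 were among the 14173 genes of the deposited tables, and all 33 passed the filter on low counts in each comparison. On GRCm38 they include Insig2 (chromosome 1, 121304353 to 121332589), Insig1 (chromosome 5, 28071363 to 28078662), Dhcr7 (chromosome 7, 143823145 to 143848410), Soat2 (chromosome 15, 102150526 to 102163469), Tm7sf2 (chromosome 19, 6062821 to 6068373) and Ebp (chromosome X, 8185329 to 8193512). By role, 9 act in the early steps from acetyl-CoA to farnesyl diphosphate or feed and leave them, 11 in the late steps from farnesyl diphosphate to cholesterol, 4 in sterol sensing, 6 in uptake, intracellular transport and esterification, and 3 in export.

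The livers came from 30 male C57BL/6J mice, 6 per diet, and each mouse gave 1 library. Casein provided the protein of the Cas-20% diet (20% protein, with 0.57 g methionine and 0.41 g cysteine per 100 g of diet) and of the Cas-5% diet (5% protein, 0.15 and 0.1 g). Soy provided that of Soy-20% (20% protein, 0.22 g of each), Soy-20% + SAA (the same with methionine and cystine added, to 0.58 and 0.41 g) and Soy-10% (11.5% protein per the labels, 0.13 g of each). All mice were switched to, or kept on, their diet at 12 weeks of age after acclimation to Cas-20% or Soy-20%, ate it for 12 weeks, and were killed at an age given as 6 months after a 4 h fast. Whole liver was sequenced from the 3′ ends of its mRNA, and 7694015 to 14565542 reads per library were counted on genes (median 10803734). In whole liver, fewer cells of a type and less RNA per cell cannot be told apart.

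Liver makes cholesterol from acetyl-CoA. The early enzymes build mevalonate and then the isoprenoid farnesyl diphosphate. The late enzymes join farnesyl units into squalene, close the rings to lanosterol and trim that sterol to cholesterol. Synthesis is governed by a feedback loop in the endoplasmic reticulum, where SCAP escorts the transcription factor SREBP2 (gene Srebf2) to the Golgi for activation when sterols are low, while INSIG1 and INSIG2 hold SCAP back when sterols are plentiful. Hepatocytes also take cholesterol from lipoproteins through receptors such as SR-BI (Scarb1). Surplus cholesterol is esterified by SOAT2, passed to apolipoprotein A-I by ABCA1, or secreted into bile by the ABCG5 and ABCG8 pair.

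The sequence near the start sites is given for Insig1 and Sc5d, called lower together, and for Hmgcs1, which was not called on Cas-5%. RefSeq promoter windows on GRCm38.p6, 300 bases from 250 before to 50 after a start site, were matched for 26 of the 33 members (33 windows). Windows for Fdps, Fdft1, Sqle, Stard4, Soat2, Npc1 and Scarb1 were not matched. The core of the sterol response element, searched as TCACNCCAC on both strands, was found in 1 of 33 windows (3.03%), that of Hmgcs1, against 1.24% of all 32851 windows in the table. The box of the cofactor NF-Y, searched as CCAAT on both strands, was found in 22 of 33 (66.7%), and in 15 of the 20 windows of early and late genes (75.0%), against 37.4% of all windows. The 3 windows shown, with matches in capitals (ATTGG is CCAAT on the other strand), are those of Insig1 and Sc5d, called lower on Cas-5% against Cas-20% and on Soy-10% against Soy-20% + SAA, and that of Hmgcs1, chosen after its match to the sterol response element was seen.
Insig1, chr5:28071162-28071461, plus strand: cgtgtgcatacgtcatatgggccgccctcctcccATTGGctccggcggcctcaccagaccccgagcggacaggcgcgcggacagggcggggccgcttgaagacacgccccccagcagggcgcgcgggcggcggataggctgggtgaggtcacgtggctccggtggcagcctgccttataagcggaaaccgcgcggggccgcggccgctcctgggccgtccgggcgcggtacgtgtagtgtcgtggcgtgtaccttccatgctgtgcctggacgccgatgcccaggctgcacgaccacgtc
Sc5d, chr9:42264251-42264550, minus strand: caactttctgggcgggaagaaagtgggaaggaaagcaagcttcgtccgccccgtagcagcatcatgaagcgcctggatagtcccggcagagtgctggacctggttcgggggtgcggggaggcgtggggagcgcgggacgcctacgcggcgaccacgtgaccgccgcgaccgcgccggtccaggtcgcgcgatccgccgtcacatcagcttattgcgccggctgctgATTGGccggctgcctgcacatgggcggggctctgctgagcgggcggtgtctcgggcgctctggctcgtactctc
Hmgcs1, chr13:119690101-119690400, plus strand: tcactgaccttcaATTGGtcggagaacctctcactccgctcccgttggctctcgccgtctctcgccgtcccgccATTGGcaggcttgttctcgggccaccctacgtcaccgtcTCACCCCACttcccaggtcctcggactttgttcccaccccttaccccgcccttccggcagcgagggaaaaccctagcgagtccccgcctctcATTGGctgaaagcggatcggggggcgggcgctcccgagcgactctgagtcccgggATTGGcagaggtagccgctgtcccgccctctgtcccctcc
The Hmgcs1 window holds 4 CCAAT boxes beside the sterol element, none of which overlaps it. The windows of Insig1 and Sc5d hold 1 box each, that of Mvd holds 2, and those of Aacs and Acat2 hold neither motif. Of 3 windows of Dhcr7 the third holds 2 boxes, and the other two hold neither motif. A match is a description of these letters only.

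Libraries 3 to 6 of Soy-20% + SAA stood apart in how expression followed GC content, library 3 by little. Over 11927 genes, log2 expression in each library was taken as its deviation from the gene's mean over the 30 livers. This deviation was regressed on GC content at the 3′ end (200 nucleotides), averaged over each gene's transcripts. The slope per 10% GC, thus relative to the 30 livers, came to 0.0589, 0.197, 0.198 and 0.222 in libraries 3 to 6 of Soy-20% + SAA. In libraries 1 and 2 of that diet it was −0.0222 and −0.0429, and in the 24 libraries of the other diets it ran from −0.0771 to 0.0441. Calls that rest on Soy-20% + SAA were therefore also tested with this slope as a covariate and without libraries 3 to 6, which leaves 2 livers of that diet. The means per liver of the synthesis members have no such correction.

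Within each protein source, the means over the early and over the late synthesis members had their lowest diet median on the restricted diet, though not every member did. Per liver, the mean of log2(normalized count + 1) over the 9 early members, centred on the 30 livers, had a median of 0.20 on Cas-20% (−0.42 to 0.70) and −0.42 on Cas-5% (−0.68 to −0.06). It was 0.50 on Soy-20% + SAA (0.12 to 0.91), 0.03 on Soy-20% (−0.44 to 0.93) and −0.28 on Soy-10% (−0.69 to 0.11). The late members followed the same order of diets, with medians of 0.18, −0.31, 0.35, 0.06 and −0.17. The Soy-10% livers lay below the 6 Soy-20% + SAA livers for the early mean, by little (highest 0.11, lowest 0.12), and overlapped them for the late mean. Cas-20% and Cas-5% livers overlapped for both. These means describe the livers and were not tested.

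**Figure D1:**
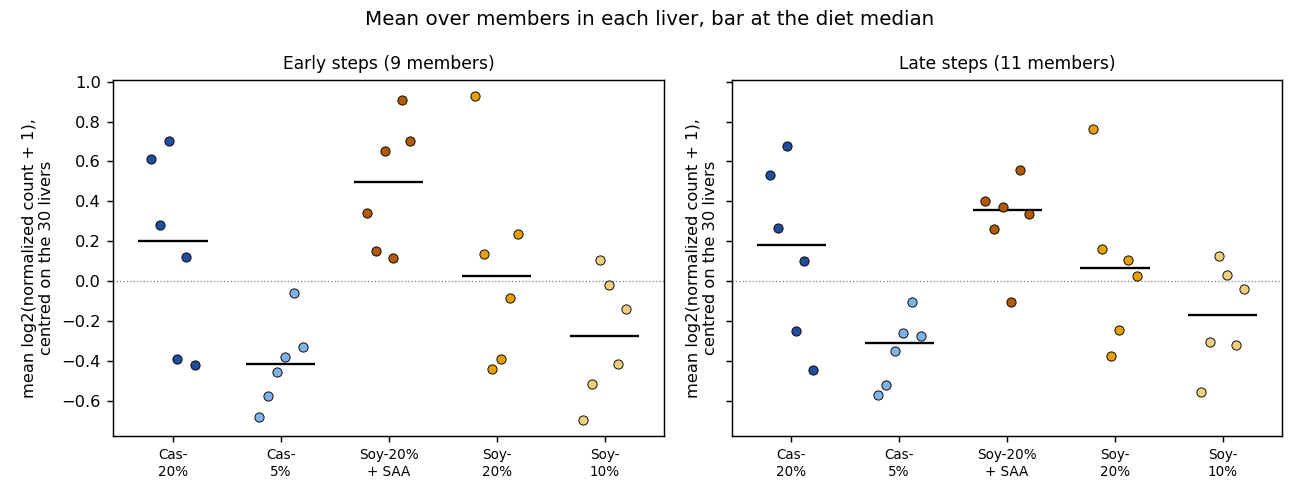
Mean over the early (left) and late (right) synthesis members in each liver, as log2(normalized count + 1) centred on the 30 livers, by diet. Each point is 1 liver (livers 1 to 6 from left to right) and each bar a diet median, which is lowest on Cas-5% (−0.42 and −0.31) and highest on Soy-20% + SAA (0.50 and 0.35).

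The spread within a diet was shared among the enzymes. Soy-20% liver 1 had the highest count of its diet for 18 of the 20 synthesis members, and Cas-20% liver 3 for 13. Cas-20% liver 6 had the lowest count of its diet for 16, and Soy-10% liver 1 for 15. On Cas-5%, liver 5 was highest for 14 and liver 1 lowest for 13. High or low livers were thus the same ones for many members.

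The first comparison asks what restricting casein protein, and with it methionine, did to these genes. On Cas-5% against Cas-20%, edgeR called 13 of 33 members at an adjusted p of 0.05 or less, 1 higher and 12 lower. Of all 12076 genes tested 24.9% were called, 13.3% lower and 11.6% higher. The 20 synthesis members gave 0 higher and 7 lower calls, and 18 of the 20 log2 fold changes were below 0 (47.6% of all genes), with a median of −0.50 against 0.02 over all genes. The sensing genes gave 3 lower calls of 4, the uptake and esterification genes 1 higher and 2 lower of 6, and the export genes 0 of 3. In 1 member the 6 Cas-5% livers lay above all Cas-20% livers and in 8 below them, where 5.14% and 7.73% of all genes did so. Without Cas-20% liver 4 there were 20 calls (22.4% of genes) and without liver 6 there were 23 (23.6% of genes). With an absolute log2 fold change of at least 1 also required, 5 members were called (3.48% of genes).

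Of the 9 early members 3 fell on casein restriction, each with overlap between the livers of the diets. Aacs, whose enzyme activates acetoacetate for lipid synthesis in the cytosol, had normalized counts with a median of 451.6 on Cas-20% (203.7 to 692.9) and 146.7 on Cas-5% (92.16 to 236.5). It fell by 1.54 on the log2 scale (SE 0.26, edgeR adjusted p = 0.000312), and the highest Cas-5% liver overlapped the lowest control. Acat2, which joins acetyl-CoA units at the entry of the pathway, had medians of 911.6 (652.3 to 1352) and 564.2 (428.4 to 696) and fell by 0.71 (SE 0.17, edgeR adjusted p = 0.00494). The neighbouring gene Acat3, also counted, is a close copy of Acat2, so the division of reads between them is uncertain. Mvd, the decarboxylase that makes isopentenyl diphosphate, had medians of 293.9 (89.7 to 508.2) and 137 (72.22 to 200.5) and fell by 1.13 (SE 0.37, edgeR adjusted p = 0.0325). Cas-20% livers 1 to 3 lay above all Cas-5% livers for Mvd, and livers 4 to 6 within the Cas-5% range. Its call was lost when any of 8 of the 12 livers was left out (log2 fold changes of −1.31 to −0.91 over the 12 omissions) and with the GC covariate (−0.64, edgeR adjusted p = 0.315). The 6 other early members had adjusted p values from 0.0511 (Fdps, −0.67) to 0.481 (Idi1, −0.29), and Ggps1, which leads to protein prenylation and away from sterols, was the single early member with a value above 0 (0.20).

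Of the 11 late members 4 fell, and for each of them no Cas-5% liver reached the lowest Cas-20% liver. Ebp, the sterol isomerase, had medians of 3145 on Cas-20% (2562 to 3506) and 1983 on Cas-5% (1785 to 2171), 1.55-fold lower (log2 −0.63, SE 0.09, edgeR adjusted p = 7.32e-05). Tm7sf2, a sterol C14-reductase, had medians of 617.5 (446.9 to 724.9) and 293.8 (212.2 to 384.1), 2.01-fold lower (log2 −1.01, SE 0.14, edgeR adjusted p = 7.94e-05). Dhcr7, which carries out a last step to cholesterol, fell by 1.17 (SE 0.20, edgeR adjusted p = 0.000373), from 596.7 (375.4 to 932.6) to 269.1 (223.6 to 349.6). Sc5d, the C5-desaturase, fell by 0.78 (SE 0.14, edgeR adjusted p = 0.000487), from 6157 (4921 to 8814) to 3778 (3234 to 4517). The 7 other late members, Fdft1 (−0.28), Sqle (−0.46), Lss (−0.51), Cyp51 (0.04), Msmo1 (−0.40), Nsdhl (−0.32) and Hsd17b7 (−0.35), had adjusted p values between 0.0609 and 0.88. Reads of Fdft1, Cyp51 and Npc1 come from ends that overlap counted genes of the opposite strand (Ctsb, Akap9 and Rmc1). The ends of Mvd and Lss overlap opposite-strand genes that were not among those counted (Gm20388 and 4930483K19Rik), and that of Fdps a same-strand one (Gm43738). Whether counting used strand is not given in the sources used here.

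**Figure D2:**
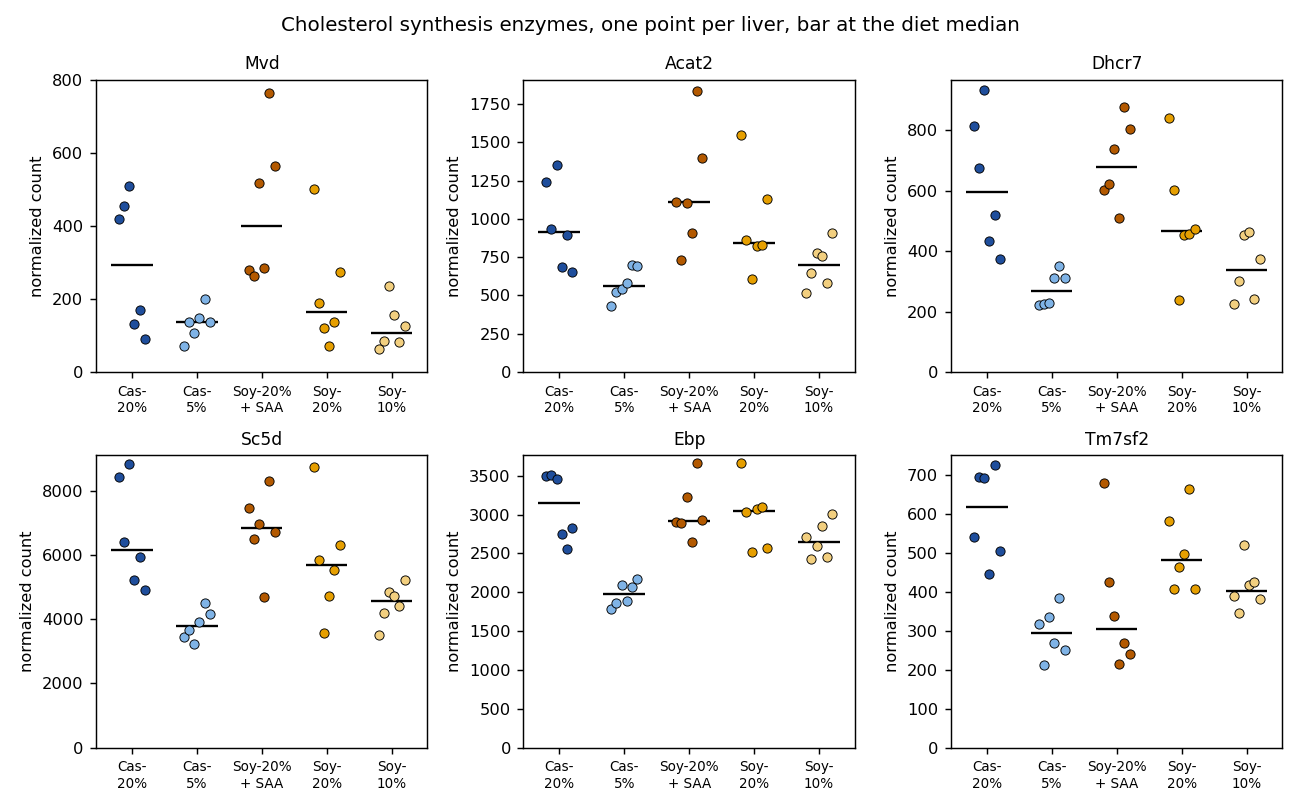
Normalized counts of 6 synthesis enzymes in each liver by diet, on linear axes from 0. Each point is 1 liver (livers 1 to 6 from left to right) and each bar a diet median; for Dhcr7, Sc5d, Ebp and Tm7sf2 the 6 Cas-5% points lie below the 6 Cas-20% points, while for Mvd and Acat2 they overlap.

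In the sensing loop the 2 anchors and the escort fell while the transcript of the factor itself did not pass the test. Insig2 had the smallest adjusted p of all members. It had medians of 3447 on Cas-20% (2640 to 3765) and 1844 on Cas-5% (1643 to 2001) and fell by 0.84 (SE 0.08, edgeR adjusted p = 1.74e-06), with no overlap. Insig1 had medians of 1227 (624.6 to 2198) and 461.1 (345.9 to 612.4) and fell by 1.35 (SE 0.28, edgeR adjusted p = 0.00165). All 6 Cas-20% livers were above the Cas-5% livers for Insig1, livers 1 to 3 by the most. Scap had medians of 1210 (948.9 to 1372) and 879.8 (829.2 to 909.2), again with no overlap, and fell by 0.44 (SE 0.08, edgeR adjusted p = 0.000583). Srebf2 had medians of 185 (126.2 to 238.1) and 174.1 (162.4 to 207.7), a log2 fold change of −0.02 (SE 0.15, edgeR adjusted p = 0.944). Cas-20% livers 1 to 3 (221.3, 238.1 and 229.1) lay above all Cas-5% livers for Srebf2, and livers 4 to 6 (148.7, 144.4 and 126.2) below them.

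Outside synthesis the member that rose was Soat2, the hepatocyte enzyme that esterifies cholesterol. Its medians were 155.5 on Cas-20% (78 to 168.2) and 265.3 on Cas-5% (204.3 to 323.9), a log2 fold change of 0.91 (SE 0.15, edgeR adjusted p = 0.000279), with each Cas-5% liver above all controls. Scarb1, the receptor for high-density lipoprotein, fell by 0.34 (SE 0.08, edgeR adjusted p = 0.00484), from 1783 (1563 to 2048) to 1406 (1201 to 1558), with no overlap. Stard4, a carrier of sterol between membranes, fell by 0.34 as well (SE 0.09, edgeR adjusted p = 0.0109), with Cas-5% liver 5 (1339) inside the Cas-20% range of 1182 to 1461. Npc1 and Npc2, which release cholesterol from lysosomes, and Mylip, the ligase that targets lipoprotein receptors, had log2 fold changes of 0.04, −0.20 and 0.14 (edgeR adjusted p = 0.783, 0.11 and 0.281).

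None of the export genes passed the test after casein restriction, and their livers overlapped. Abca1 had medians of 1166 on Cas-20% (1105 to 1410) and 1069 on Cas-5% (944.9 to 1238), a log2 fold change of −0.17 (SE 0.09, edgeR adjusted p = 0.17). Abcg5 had 487.8 (342.6 to 538.9) and 411.1 (333.5 to 504.4), a value of −0.17 (SE 0.11, edgeR adjusted p = 0.29). Abcg8 had 635.1 (509.2 to 777) and 581.4 (544.4 to 743.3), a value of −0.02 (SE 0.10, edgeR adjusted p = 0.92). In edgeR 0 of the 3 export members had an unadjusted p under 0.05, against 36.6% of all genes.

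**Figure D3:**
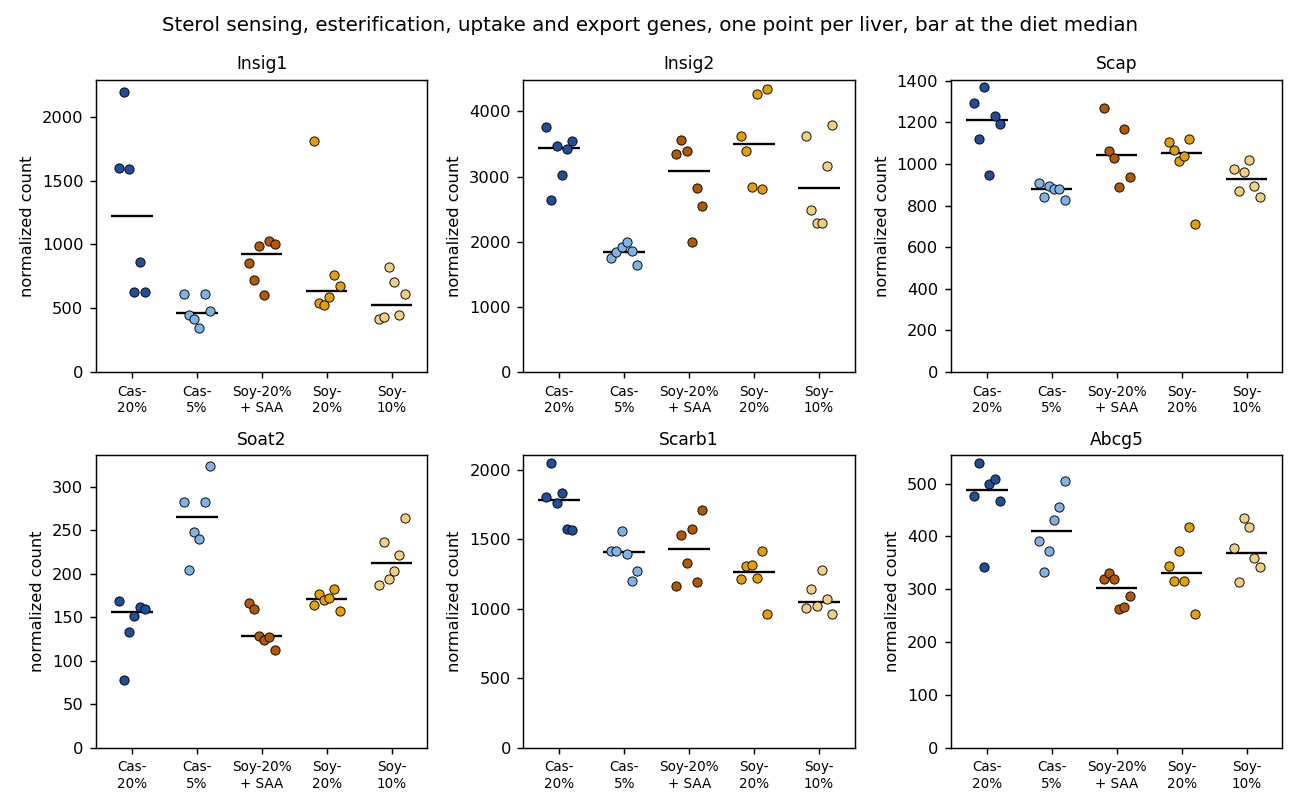
Normalized counts of 3 sensing genes (Insig1, Insig2, Scap), Soat2, Scarb1 and Abcg5 in each liver by diet, on linear axes from 0. Each point is 1 liver (livers 1 to 6 from left to right) and each bar a diet median; Soat2 medians are highest on the restricted diets (265.3 on Cas-5% and 212.8 on Soy-10%).

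The second comparison restricts soy protein against the control whose sulfur amino acids match those of Cas-20%. On Soy-10% against Soy-20% + SAA, edgeR called 19 of 33 members, 2 higher and 17 lower, where 17.0% of 11983 genes were called (8.51% higher and 8.47% lower). The synthesis members gave 14 lower calls of 20, 7 early and 7 late, with 18 of 20 log2 fold changes below 0 (51.2% of all genes) and a median of −0.63 against −0.01 over all genes. In 1 member the Soy-10% livers lay above and in 5 below all controls, where 2.90% and 3.31% of all genes did so. The count was 2 with the GC slope as a covariate (Sc5d and Dhcr7), where 2.73% of genes were called. It was also 2 without libraries 3 to 6 of Soy-20% + SAA (Sc5d and Hmgcs1), where 2.54% of genes were called and 2 control livers remained. The calls of members other than these 3 were lost in both settings, with no change of sign. In both settings 20 of 20 synthesis members had log2 fold changes below 0 (49.7% of all genes in each), with medians of −0.45 and −0.47.

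Among the early members the falls after soy restriction were led by Mvd and Fdps. Mvd had medians of 400.8 on Soy-20% + SAA (262.8 to 765.3) and 106 on Soy-10% (63.96 to 236.3) and fell by 1.83 (SE 0.33, edgeR adjusted p = 0.00321). Fdps, the synthase of farnesyl diphosphate, had medians of 1179 (1030 to 2148) and 630.7 (391.9 to 920.9) and fell by 1.13 (SE 0.22, edgeR adjusted p = 0.00555). For both genes no Soy-10% liver reached the lowest control. Hmgcs1, the synthase before mevalonate, fell by 0.79 (SE 0.16, edgeR adjusted p = 0.00702), from 7990 (5592 to 10934) to 4659 (3283 to 6495). Pmvk, Acat2, Aacs and Mvk fell by 0.71, 0.76, 1.11 and 0.48 with overlapping livers. With the covariate Mvd was at −1.21 (edgeR adjusted p = 0.0636), Fdps at −0.67 (edgeR adjusted p = 0.104), Hmgcs1 at −0.73 (edgeR adjusted p = 0.0636) and Aacs at −0.46 (edgeR adjusted p = 0.45). With libraries 3 to 6 left out they were at −1.12 (edgeR adjusted p = 0.1), −0.72 (edgeR adjusted p = 0.122), −0.73 (edgeR adjusted p = 0.0478) and −0.28 (edgeR adjusted p = 0.705). Pmvk, Acat2 and Mvk lay between −0.21 and −0.47 in these settings and were not called.

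By p value, the late members were led by Fdft1 and Dhcr7. Fdft1, squalene synthase, had medians of 655.8 on Soy-20% + SAA (584.8 to 870.7) and 415.2 on Soy-10% (294.4 to 513.2) and fell by 0.76 (SE 0.13, edgeR adjusted p = 0.00243). Dhcr7 had medians of 679.7 (510.8 to 877.2) and 338.2 (226.4 to 463) and fell by 1.02 (SE 0.18, edgeR adjusted p = 0.00323). Neither gene overlapped between these diets. Msmo1 (−0.66), Sc5d (−0.60), Hsd17b7 (−0.44), Sqle (−0.79) and Cyp51 (−0.36) also fell, with overlap. Of these, Sc5d kept its call with the covariate (−0.62, edgeR adjusted p = 0.0398) and without libraries 3 to 6 (−0.65, edgeR adjusted p = 0.0117). Dhcr7 was called with the covariate (−0.79, edgeR adjusted p = 0.0493) and had an edgeR adjusted p of 0.0639 without those libraries. Fdft1 was at −0.54 (edgeR adjusted p = 0.0509) with the covariate and −0.55 (edgeR adjusted p = 0.078) without those libraries, and Msmo1 (−0.60 and −0.60), Hsd17b7 (−0.47 and −0.47), Sqle (−0.60 and −0.73) and Cyp51 (−0.24 and −0.26) were called in neither setting. Tm7sf2 (0.19, edgeR adjusted p = 0.583) and Ebp (−0.19, edgeR adjusted p = 0.12), which fell on Cas-5%, did not pass here. Tm7sf2 was below 0 with the covariate (−0.27, edgeR adjusted p = 0.485) and without those libraries (−0.43, edgeR adjusted p = 0.208).

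Of the sensing genes Insig1 fell after soy restriction, from 923.8 (606.6 to 1030) to 529.1 (414.2 to 825), by 0.60 on the log2 scale (SE 0.18, edgeR adjusted p = 0.0338). Insig2 had medians of 3086 (1994 to 3556) and 2826 (2291 to 3791), a log2 fold change of 0.00 (SE 0.16, edgeR adjusted p = 0.988). Srebf2, at 149.2 (141.8 to 171.1) and 134.8 (104.8 to 183.5), had a value of −0.11 (SE 0.12, edgeR adjusted p = 0.583). The livers overlapped for all 3 genes, and Insig1 was at −0.43 with the covariate (edgeR adjusted p = 0.299) and −0.47 without libraries 3 to 6 (edgeR adjusted p = 0.314).

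Soat2 rose again, from 128.2 on Soy-20% + SAA (112.6 to 166.3) to 212.8 on Soy-10% (186.8 to 264.1), with no overlap (log2 0.67, SE 0.12, edgeR adjusted p = 0.00235). With the covariate its value was 0.44 (edgeR adjusted p = 0.0543), and without libraries 3 to 6 it was 0.41 (edgeR adjusted p = 0.148). Npc2 fell by 0.36 (SE 0.09, edgeR adjusted p = 0.0146), from 1462 (1218 to 1686) to 1150 (1062 to 1213), also with no overlap. Scarb1 fell by 0.39 (SE 0.10, edgeR adjusted p = 0.0209), from 1428 (1163 to 1711) to 1045 (959.4 to 1279). Abcg5 rose from 303 (262.6 to 330.1) to 369.4 (313.2 to 434.8), by 0.33 (SE 0.09, edgeR adjusted p = 0.0277), with overlap. Abcg8, its partner, had medians of 474.9 (434.7 to 623) and 569.2 (504.5 to 659.1) and a value of 0.17 (SE 0.10, edgeR adjusted p = 0.264). Abca1 had 925.2 (756 to 1257) and 1060 (917.6 to 1191) and a value of 0.12 (SE 0.12, edgeR adjusted p = 0.53), which was −0.16 with the covariate and −0.14 without libraries 3 to 6. Neither Npc2, Scarb1 nor Abcg5 was called with the covariate (−0.14, −0.28 and 0.25) or without those libraries (−0.14, −0.32 and 0.20).

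The same Soy-10% livers were set against the unsupplemented Soy-20% control, whose GC slopes ran from −0.0435 to −0.0157 but whose methionine lies nearer to that of Soy-10%. edgeR called 0 of 33 members, 9 had an unadjusted p under 0.05, and DESeq2 called 1. Of 11897 genes 0.866% were called by edgeR, 12.3% had an unadjusted p under 0.05 and 1.92% were called by DESeq2. All 20 synthesis members had log2 fold changes below 0 (50.1% of all genes), with a median of −0.31. Acat2 had medians of 844.8 on Soy-20% (610 to 1546) and 702 on Soy-10% (514.8 to 910), a log2 fold change of −0.47 (SE 0.18, edgeR adjusted p = 0.292). Dhcr7 had medians of 466.3 (239.2 to 841.2) and 338.2 (226.4 to 463), a value of −0.58 (SE 0.24, edgeR adjusted p = 0.319). The livers overlapped for both, as they did for Mvd (−0.78, SE 0.39, edgeR adjusted p = 0.449). Soy-20% liver 1 stood above its diet for most of these genes, with an Mvd count of 502.5 against a diet median of 164. Soat2 had medians of 171.1 on Soy-20% (156.9 to 182.3) and 212.8 on Soy-10% (186.8 to 264.1). Each Soy-10% liver was above all Soy-20% livers (0.597% of genes), and its log2 fold change was 0.35 (SE 0.09, edgeR adjusted p = 0.0716, DESeq2 adjusted p = 0.0255). Insig2, at 3508 (2810 to 4352) on Soy-20%, had the smallest p of the sensing genes (−0.27, SE 0.14, edgeR adjusted p = 0.478). Abcg8 had that place among the export genes (0.32, SE 0.11, edgeR adjusted p = 0.204), from 443.3 on Soy-20% (335.9 to 603.6). On Soy-20% the medians were 631.7 for Insig1 (522.6 to 1810), 148.5 for Srebf2 (134.8 to 238.2), 1265 for Scarb1 (963.4 to 1412) and 1104 for Abca1 (964.5 to 1162). Their log2 fold changes were −0.51, −0.21, −0.20 and −0.06, none called.

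**Figure D4:**
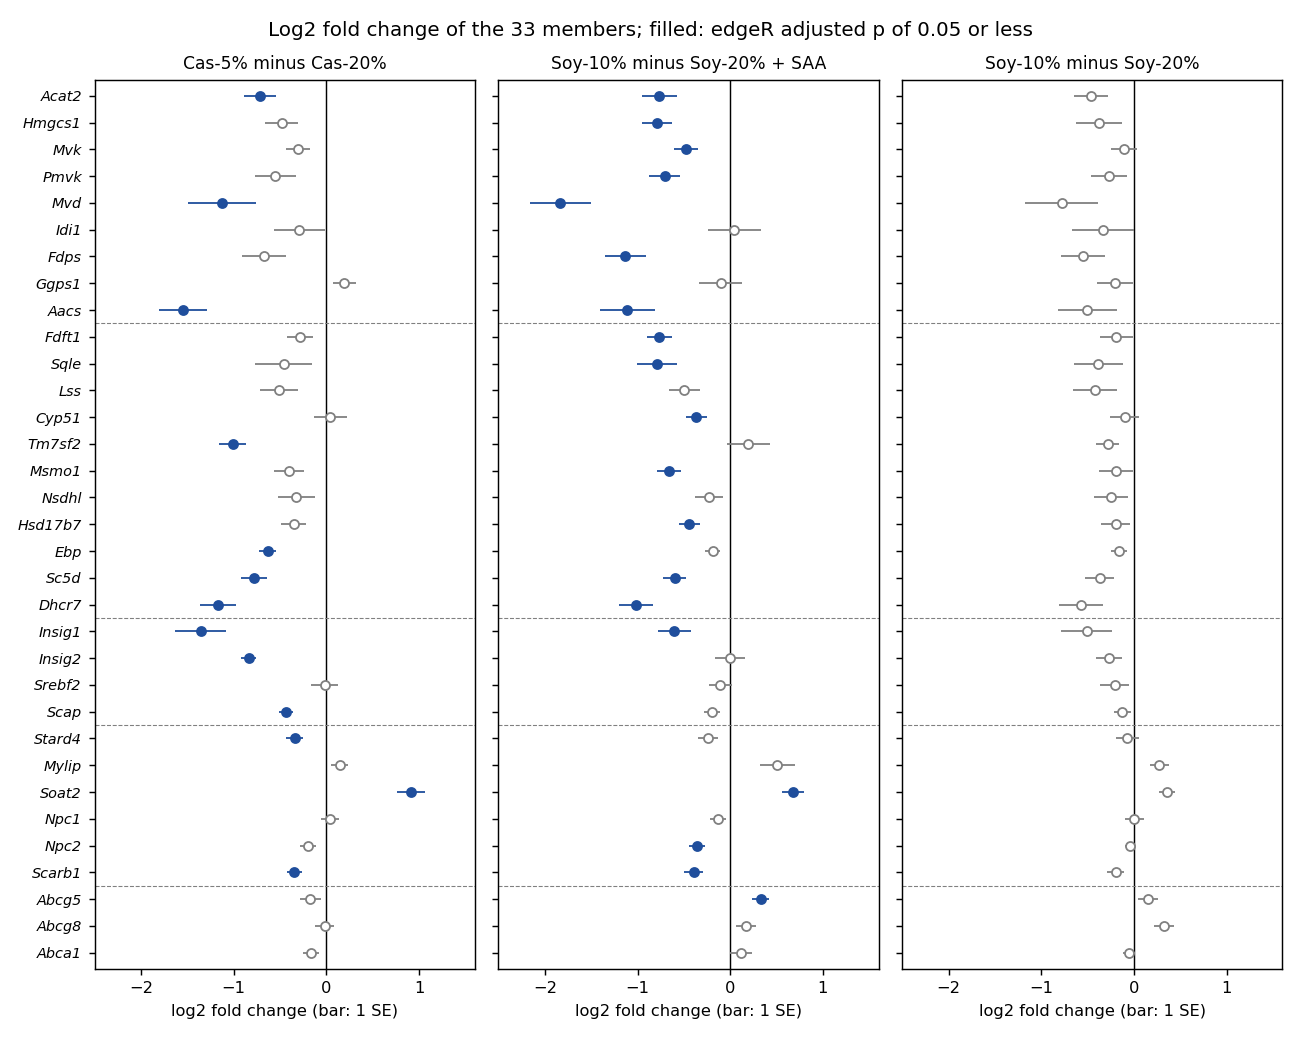
Log2 fold change (point) with 1 standard error (bar) of the 33 members in 3 comparisons of 6 livers against 6, with dashed lines between the early, late, sensing, uptake and export members. Filled points have an edgeR adjusted p of 0.05 or less (13, 19 and 0 members); the middle and right panels share the Soy-10% livers.

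Adding methionine and cystine to 20% soy moved no member past the threshold in edgeR when all livers of both diets, and no others, were fitted. edgeR called 0 of 33 members between Soy-20% + SAA and Soy-20%, 7 had an unadjusted p under 0.05, and DESeq2 called 2. Over all genes edgeR called 0.00838%, 24.2% had an unadjusted p under 0.05 and DESeq2 called 7.42%. Without Soy-20% + SAA liver 1 edgeR called 4 members (13.3% of genes), and without liver 2 it called 2 (9.27%). With all 30 livers in the fit it called 2 (14.3%). Of the 20 synthesis members 4 had values below 0 (49.2% of all genes), with the smallest p of the late members for Fdft1 and of the early members for Mvk. Fdft1 had medians of 655.8 on Soy-20% + SAA (584.8 to 870.7) and 439.1 on Soy-20% (299.9 to 772.4), a value of 0.56 (SE 0.18, edgeR adjusted p = 0.0967). Mvk, mevalonate kinase, had 224.9 (159.6 to 239.6) and 155.8 (128.5 to 236), a value of 0.36 (SE 0.14, edgeR adjusted p = 0.134). The diets overlapped for both. By p value, the other lists were led by Npc2 (0.30, SE 0.09, edgeR adjusted p = 0.0843, from 1166 on Soy-20%, 1107 to 1275), Insig2 (−0.28, SE 0.15, edgeR adjusted p = 0.27) and Abcg5 (−0.19, SE 0.11, edgeR adjusted p = 0.321). DESeq2 called Npc2 and Fdft1. With the covariate and without libraries 3 to 6 the values were 0.36 and 0.36 for Fdft1 (edgeR adjusted p = 0.654 and 0.827), 0.17 and 0.10 for Mvk, and 0.08 and 0.09 for Npc2. Its livers are shared with the comparisons of Soy-10% against both controls, so the values are not independent.

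Between the unrestricted diets with matched sulfur amino acids, Cas-20% and Soy-20% + SAA, 1 member was called, where 2.43% of genes were (1.42% higher on Cas-20%). This was Abcg5, a subunit of the biliary sterol transporter, at 487.8 on Cas-20% (342.6 to 538.9) and 303 on Soy-20% + SAA (262.6 to 330.1). It was 0.67 higher on Cas-20% (SE 0.11, edgeR adjusted p = 0.0177), with no overlap (1.50% of genes lay apart in this direction). With the covariate the value was 0.56 (edgeR adjusted p = 0.108), and without libraries 3 to 6 it was 0.54 (edgeR adjusted p = 0.571). The annotated spans of Abcg5 and Abcg8 overlap at their starts, away from the 3′ ends that were read. The smallest p values of the other lists belonged to Scarb1 (0.32, SE 0.11, edgeR adjusted p = 0.0878), Tm7sf2 (0.74, SE 0.24, edgeR adjusted p = 0.0885), Hmgcs1 (−0.46, SE 0.20, edgeR adjusted p = 0.154) and Insig1 (0.53, SE 0.28, edgeR adjusted p = 0.247). Tm7sf2 was at 0.39 with the covariate and 0.11 without libraries 3 to 6 (edgeR adjusted p = 0.431 and 0.936).

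The restricted diets differed from each other in 5 members, 2 higher and 3 lower on Cas-5% than on Soy-10%, where 10.7% of genes were called (4.59% higher and 6.14% lower). With all 30 livers in the fit 2 of these calls were lost and 3 members were called (7.17% of genes). Ebp was 0.41 lower on the log2 scale on Cas-5% (SE 0.07, edgeR adjusted p = 0.000801), at 1983 (1785 to 2171) against 2650 (2428 to 3003). Insig2 was 0.66 lower (SE 0.12, edgeR adjusted p = 0.00127), at 1844 (1643 to 2001) against 2826 (2291 to 3791). For both genes every Cas-5% liver was below all Soy-10% livers (4.09% of genes). Tm7sf2, at 293.8 (212.2 to 384.1) against 403.5 (347.1 to 521), was lower by 0.46 with overlap (SE 0.12, edgeR adjusted p = 0.0214). Scarb1, at 1406 (1201 to 1558) against 1045 (959.4 to 1279), was 0.37 higher on Cas-5% (SE 0.08, edgeR adjusted p = 0.00487). Npc1 was 0.33 higher (SE 0.08, edgeR adjusted p = 0.0113), at 1214 (1040 to 1284) against 990.1 (787.9 to 1144). The smallest p among the early members was that of Aacs (−0.72, SE 0.25, edgeR adjusted p = 0.0768) and among the export members that of Abcg5 (0.17, SE 0.10, edgeR adjusted p = 0.296).

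The difference between the restriction effects (casein minus soy) was then tested itself, in 24 livers with no liver in both effects. With Soy-20% + SAA as the soy control, 4 members were called, all negative, where 8.69% of genes were called (5.49% negative). Tm7sf2 had −1.21 (SE 0.29, edgeR adjusted p = 0.0132), from an effect of −1.01 for casein and 0.19 for soy. Insig2 had −0.84 (SE 0.19, edgeR adjusted p = 0.00883), from −0.84 and 0.00. Ebp had −0.45 (SE 0.12, edgeR adjusted p = 0.0271), from −0.63 and −0.19, and Abcg5 −0.51 (SE 0.15, edgeR adjusted p = 0.0378), from −0.17 and 0.33. The call of Abcg5 was lost when any of 13 of the 24 livers was left out (−0.58 to −0.45), and that of Ebp with 1 of them. For Tm7sf2 the Soy-20% + SAA livers ranged from 215.6 to 680.4, wider than the 6 livers of any other diet. With Soy-20% as the control, 2 members were called, both negative (5.99% of genes, 3.57% negative), Ebp at −0.47 (SE 0.13, edgeR adjusted p = 0.0264) and Tm7sf2 at −0.73 (SE 0.20, edgeR adjusted p = 0.0304), while Insig2 had −0.57 (SE 0.18, edgeR adjusted p = 0.0512). The GC covariate with this control gave −0.41 for Ebp (edgeR adjusted p = 0.0428), −0.67 for Tm7sf2 (edgeR adjusted p = 0.0522) and −0.64 for Insig2 (edgeR adjusted p = 0.0195), so that Insig2 gained a call and Tm7sf2 lost its own. With the covariate and Soy-20% + SAA as the control Tm7sf2 (−0.93), Insig2 (−0.60) and Ebp (−0.51) were called and Abcg5 (−0.44) was not, where 5.32% of genes were called. Without Soy-20% + SAA libraries 3 to 6, where 2.27% of genes were called, 0 of the 4 were, and the values were −0.58 for Tm7sf2, −0.61 for Insig2, −0.51 for Ebp and −0.37 for Abcg5.

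The lists of members called lower overlapped in part. The 7 genes called lower in both were 58.3% of the 12 called lower on Cas-5% and 41.2% of the 17 called lower on Soy-10% against Soy-20% + SAA. Of 11854 genes tested in both, 4.77% were called lower in both, which was 35.2% of those lower on Cas-5% and 56.2% of those lower on Soy-10%. The 7 members were Aacs, Acat2, Mvd, Dhcr7, Sc5d, Insig1 and Scarb1, and Soat2 was higher in both. Of these 8, Sc5d was the one whose soy call held both with the covariate and without libraries 3 to 6. For members other than Ebp, Tm7sf2, Insig2 and Abcg5 edgeR did not call the difference between the effects. With Soy-20% as the control DESeq2 called that of Soat2 as well (0.55, DESeq2 adjusted p = 0.0466). Over all 5 diets, an F test on 30 livers called 25 of 33 members, where 43.4% of genes were called. This count was 14 with the covariate (28.3% of genes) and 14 without Soy-20% + SAA libraries 3 to 6 (26.2% of genes). The 8 members not called were Ggps1, Idi1, Lss, Sqle, Cyp51, Nsdhl, Srebf2 and Abca1.

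A list of 43 other genes of the pathway, of which 42 were tested, gave 8 calls on Cas-5% against Cas-20%, 7 of them lower, where 24.9% of all genes were called. On Soy-10% against Soy-20% + SAA it gave 10, of which 6 were lower, where 17.0% of all genes were called. With the covariate, and also without libraries 3 to 6, it gave 1, Cyb5r3. Against Soy-20% edgeR gave 0, with 6 at an unadjusted p under 0.05, where 12.3% of all genes had one. Srebf1, which encodes SREBP1 and acts mainly on fatty acid synthesis, had medians of 1437 on Cas-20% (1078 to 2100) and 409.6 on Cas-5% (298.8 to 453) and fell by 1.93 (SE 0.16, edgeR adjusted p = 3.5e-07), with no overlap. On Soy-10% against Soy-20% + SAA its value was 0.29 (SE 0.27, edgeR adjusted p = 0.468), which was −0.17 with the covariate and −0.39 without libraries 3 to 6. With that control its casein effect minus its soy effect was −2.23 (SE 0.33, edgeR adjusted p = 0.000298). With Soy-20% as the control it was −1.32 (SE 0.26, edgeR adjusted p = 0.00225). On Soy-20% + SAA its median was 327.6 (143.8 to 634.5), so that it was 2.03 higher on Cas-20% than there (SE 0.30, edgeR adjusted p = 0.0134). That difference was 1.69 with the covariate (edgeR adjusted p = 0.0346) and 1.35 without libraries 3 to 6 (edgeR adjusted p = 0.252). Cyb5r3, the reductase that supplies electrons to the desaturase and demethylase steps, fell by 0.996 after casein restriction (SE 0.10, edgeR adjusted p = 1.74e-06) and by 0.68 after soy restriction (SE 0.11, edgeR adjusted p = 0.00151). Ebpl, a relative of Ebp, fell by 0.68 on Cas-5% (SE 0.09, edgeR adjusted p = 2.24e-05), Tmem97 by 0.47 (SE 0.08, edgeR adjusted p = 0.000247) and Scp2, a sterol carrier, by 0.32 (SE 0.07, edgeR adjusted p = 0.00212). After soy restriction Erg28, a scaffold of the demethylation complex, fell by 0.50 (SE 0.09, edgeR adjusted p = 0.0036). Gramd1a, which moves cholesterol from the plasma membrane, fell by 0.61 (SE 0.14, edgeR adjusted p = 0.0134). Of these soy calls Cyb5r3 held with the covariate (−0.45, edgeR adjusted p = 0.032) and without libraries 3 to 6 (−0.49, edgeR adjusted p = 0.0326), while Erg28 (−0.34 in both) and Gramd1a (−0.37 and −0.29) did not.

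Transcripts of fatty acid synthesis and of the clock moved in the same livers. Of 14 fatty acid synthesis genes 11 were lower after casein restriction (median −1.71) and 11 after soy restriction against Soy-20% + SAA (median −1.10), where 13.3% and 8.47% of all genes were called lower. With the covariate 3 of the 14 were called for soy, where 2.73% of all genes were. Against Soy-20% 1 of the 14 was (Scd1, lower), where 0.866% of all genes were, and all 14 values were below 0. Of 13 clock genes tested 8 were called for casein, 7 of them lower, and 4 for soy, 3 of them lower, where 24.9% and 17.0% of all genes were called. Under the covariate edgeR called 0 of the clock genes for soy, where 2.73% of all genes were called. In that setting 1 clock gene had an unadjusted p under 0.05, and the share of all genes with one is not given. Neither list is given with the Soy-20% + SAA libraries that stood apart in GC slope left out. The part of the fatty acid synthesis and clock genes in the cholesterol results was not tested.

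Marker genes were read for the tissue and for other cells. The 6 hepatocyte markers were all in the table, led by Alb, and summed to medians of 754069 normalized counts on Cas-20% and 859791 on Cas-5%. After casein restriction 11.6% of all genes were called higher and 13.3% lower. In that comparison 1 hepatocyte marker was higher (Alb) and 2 lower (Cps1 and Tat), the latter also enzymes of amino acid metabolism. Of 5 red blood cell markers, led by Hbb-bs, 4 were lower, with sums of 25137 on Cas-20% (15728 to 34944) and 16556 on Cas-5% (11503 to 19812). Of 6 acute phase genes, led by Hp, 4 were lower, and of 6 stellate and matrix genes, led by Dcn, 2 were higher, with sums of 3716 (3273 to 4127) and 4565 (3799 to 5168). Kupffer cell markers gave 0 calls of 6 in edgeR, with 1 at an unadjusted p under 0.05, against 24.9% and 36.6% of all genes. Single genes of other lists were called too, with Kdr of the endothelium higher, and Cfd (adipocyte) and Cela1 (pancreatic acinar) lower. The defining adipocyte markers Adipoq and Plin1 and the lymphocyte marker Cd79a were not among the genes counted. After soy restriction against Soy-20% + SAA the calls were 1 lower hepatocyte marker (Apoa1), 1 higher Kupffer cell marker (Marco), 1 lower cholangiocyte marker (Sox9) and 1 lower adipocyte marker (Cidea). Of all genes 17.0% were called there, 2.73% with the covariate and 2.54% without libraries 3 to 6. The marker calls are not given in those settings. The 5 cholangiocyte markers, led by Sox9, summed to medians of 317.6 on Soy-10% (265.6 to 352.4) and 430.2 on Soy-20% (393.5 to 548.4). On Soy-20% + SAA the median sum was 425.5 (346 to 519). Each Soy-10% liver lay below all Soy-20% livers for this sum, which was not tested. The part of these other cells in the results was not tested.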

How the data were processed

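Livers were grouped by the diet in the labels, 6 per diet, and mice are the replicates. Per the labels and the study's methods, the kit was Lexogen QuantSeq 3′ FWD and the sequencer a NextSeq 500, and reads were processed with the Bluebee QuantSeq pipeline 2.3.6 on GRCm38. The read length is given as 50 bp in the labels and 75 bp in the methods. The aligner, the counting program and the annotation release are not given in the sources used here. The submitters' processing notes name R 4.0.3 and DESeq2 1.30. The authors deposited raw counts per gene, with no normalization, for 14173 genes with totals of at least 90. A second deposited table holds a normalized signal, each count divided by its library's size factor (0.7586 to 1.297). The latter are the normalized counts printed here. They are not scaled to gene length, so levels were not compared between genes. Symbols lacking for 1684 genes were taken from the reference gene names.

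Counts were tested in R 4.3.3 with edgeR 4.0.16 (filterByExpr, TMM, quasi-likelihood F test, two-sided, Benjamini-Hochberg over all genes tested, threshold 0.05), in only the livers of the diets compared. DESeq2 1.42.0, other scalings and filters, a replicate block, the GC slope, all 30 livers and left-out livers were alternatives. The fits were tested on simulated data. With means, dispersions and library sizes taken from the Cas-5% and Cas-20% livers, edgeR recovered 91.2% of genes changed by 1 on the log2 scale and 50.3% of those changed by 0.5, among 12090 and 12122 genes. For Soy-10% and Soy-20% the shares were 90.7% and 53.8%, among 11913 and 11908 genes. For the casein minus soy effect 67.8% of genes changed by 1 were recovered among 12526. From 193 to 199 of the tested genes were changed in each simulation, while edgeR called 3008 genes in the casein comparison. The shares recovered therefore need not hold for the data. Soy-10% against Soy-20% + SAA was not simulated by itself. Figures used matplotlib 3.10.9 in Python 3.11.15 with pandas 2.3.3 and numpy 2.4.6.

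The members, gene lists, markers and tests were chosen with earlier results of these data known. Genes with full values were up to 2 called members of each role with the smallest p per comparison (or the member with the smallest p where none was called), members whose casein minus soy effect was called, Insig1, Srebf2, Scarb1 and the export genes, and up to 5 called genes of the other pathway list. A gene that this rule would name is not reported here. Other genes named with values were chosen after these were seen. Promoter windows are from RefSeq (GRCm38.p6), and coordinates from the deposited table.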

Additional observations from a re-analysis of the deposited data

Results flagged for a closer look

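In 11 of 165 groups (33 members in 5 diets) 1 liver stood apart from the 5 others of its diet by Dixon's gap criterion, which chance meets in about 1 in 20 groups. Soy-20% liver 1 did so for 4 genes, with normalized counts of 236.0 for Mvk, 900.2 for Sqle, 4140 for Msmo1 and 1810 for Insig1, each the highest of its diet. Soy-20% liver 6 was low for Scap (710.7). Among Soy-20% + SAA livers, liver 4 was low for Lss (180.2), liver 5 high for Cyp51 (2990) and liver 1 high for Npc1 (1230). On Cas-5%, liver 5 was high for Stard4 (1339) and liver 2 low for Npc1 (1040). Cas-20% liver 3 was low for Abcg5 (342.6).

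The casein and soy restriction effects differed by the edgeR test of the difference itself for 4 of 33 members with Soy-20% + SAA as the soy control (8.69% of all genes) and for 2 with Soy-20% (5.99% of all genes). The differences on the log2 scale were −0.84 for Insig2, −1.21 for Tm7sf2, −0.45 for Ebp and −0.51 for Abcg5 with the former control (edgeR adjusted p = 0.00883, 0.0132, 0.0271 and 0.0378). Without Soy-20% + SAA libraries 3 to 6 these were −0.61, −0.58, −0.51 and −0.37 (edgeR adjusted p = 0.115, 0.246, 0.0602 and 0.329). With Soy-20% the differences were −0.73 for Tm7sf2 and −0.47 for Ebp (edgeR adjusted p = 0.0304 and 0.0264). Tm7sf2 was not called there with the GC covariate (−0.67, edgeR adjusted p = 0.0522). For Insig2, Ebp and Tm7sf2 the casein effect was the more negative one under both controls.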

How the results depend on the processing

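Percentages are shares of all genes called in the same setting. The numbers of members called as reported were 13 for casein, 19 for Soy-10% against Soy-20% + SAA, 0 for Soy-10% and for Soy-20% + SAA against Soy-20%, 1 for Cas-20% against Soy-20% + SAA, 5 for Cas-5% against Soy-10%, 4 and 2 for the casein minus soy effects and 25 over all diets. With single livers left out the casein count ran from 12 to 23 (20 without Cas-20% liver 4, 22.4%, and 23 without liver 6, 23.6%). For Soy-10% against Soy-20% + SAA the count ran from 14 to 21. It was 14 without Soy-20% + SAA liver 5 or liver 6 (10.1% each) and 21 without liver 1 (25.8%). It ran from 0 to 1 for Soy-10% against Soy-20% (1 without Soy-20% liver 5, 1.12%, and without Soy-10% liver 1, 0.651%), and from 0 to 4 for Soy-20% + SAA against Soy-20% (4 without Soy-20% + SAA liver 1, 13.3%, and 2 without liver 2, 9.27%). For the casein minus soy effect with Soy-20% + SAA the range was 2 to 4, with 2 when Soy-20% + SAA liver 4 was left out (5.70%). With the GC slope as a covariate Soy-10% against Soy-20% + SAA gave 2 (2.73%), Cas-20% against Soy-20% + SAA 0 (0.0751%) and the test over all diets 14 (28.3%). Without Soy-20% + SAA libraries 3 to 6 these were 2 (2.54%), 0 (0.0240%) and 14 (26.2%), and the casein minus soy effect gave 0 (2.27%). This setting has fewer samples. With DESeq2, Soy-10% against Soy-20% gave 1 (1.92%), Soy-20% + SAA against Soy-20% 2 (7.42%), Cas-20% against Soy-20% + SAA 2 (9.63%) and the casein minus soy effect with Soy-20% 4 (7.33%). With all 30 livers in the fit, Soy-20% + SAA against Soy-20% gave 2 (14.3%), Cas-20% against Soy-20% + SAA 5 (18.6%), Cas-5% against Soy-10% 3 (7.17%) and the casein minus soy effect with Soy-20% 1 (3.92%). Upper-quartile scaling gave 2 (10.5%) for the effect with Soy-20% + SAA. With an absolute log2 fold change of at least 1 the counts were 5 for casein (3.48%), 4 for soy against Soy-20% + SAA (2.57%), 0 for Cas-20% against Soy-20% + SAA (0.475%), 0 for Cas-5% against Soy-10% (0.872%), and 1 (2.27%) and 0 (1.39%) for the casein minus soy effects with Soy-20% + SAA and Soy-20%. On Soy-10% against Soy-20% + SAA the calls of Cyp51 and Insig1 were each lost in 7 of 12 omissions of a liver, Abcg5 in 6, Mvk in 5, Sqle in 3 and Aacs in 1. Beyond the settings' own construction, the causes were not tested.

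Replicate numbers did not pair the livers: over 60 same-numbered pairs the median r of deviations was 0.00345, the lowest −0.242, and 17 were above 0.1. With the replicate block 12 members were called for casein (22.0%), 19 for soy against Soy-20% + SAA (16.8%) and 3 for the casein minus soy effect with Soy-20% + SAA (10.2%). Mvd (−0.93, edgeR adjusted p = 0.122) and Abcg5 (−0.51, edgeR adjusted p = 0.0541) were not called in the first and the last.

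Over the 33 members, 8 comparisons and all alternative fits (4612 values), 104 calls were lost, 59 were gained and 149 values changed sign, of which 0 were called as reported or under the alternative. Among members called, or with the smallest p of a role without calls, the sign changed for Insig2 in Soy-20% + SAA against Soy-20% (0.0069 with the covariate), and Mvd (−0.0148) and Mylip (0.14) in the casein minus soy effect without Soy-20% + SAA libraries 3 to 6. The p-values measure the spread between mice of 1 experiment. At 6 livers per diet, changes near 0.5 on the log2 scale were recovered about as often as not in simulated counts with few changed genes. A member that missed the threshold is not shown to be unchanged.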

Other observations

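Pancreatic acinar transcripts, read as a sum of 7 markers, reached 7026 normalized counts in Soy-10% liver 4, against 164 to 629 in all other livers. Nus1, which acts on dolichol synthesis from farnesyl diphosphate, rose by 0.72 on Soy-10% against Soy-20% + SAA (SE 0.20, edgeR adjusted p = 0.0275), with no overlap, from a median of 381.7 (258.8 to 619.4) to 662.1 (641.4 to 785). With the GC slope as a covariate the value was 0.20 (edgeR adjusted p = 0.286) and without Soy-20% + SAA libraries 3 to 6 it was 0.18 (edgeR adjusted p = 0.361). On Soy-20% the median was 629.3 (587.5 to 684.4).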
